A study of Mus musculus with 3 samples.

Results

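The genes described here encode the cytoplasmic and central channel nucleoporins of the nuclear pore complex and factors of mRNA export. They are Ranbp2, Nup214, Nup88, Nup62, Nup54, Rae1, Gle1, Nxf1, Mcm3ap and Eny2, chosen by symbol for the place of their proteins in the pore or in the export path, and not for a measured value. All 10 were found among the 24421 genes counted, and all 10 had more than 1000 reads in every library. The libraries were total RNA-seq of EL 16.7, a female mouse embryonic stem (ES) cell line labelled as F2:129S1/CastEiJx 129S1. The cells were grown with LIF on γ-irradiated DR4 mouse embryonic fibroblast feeders, were infected with lentivirus and were selected with puromycin at 2 μg/ml for 2 days. The control library carried a scramble shRNA, the NUP153 KD-1 library carried NUP153 shRNA-1 and the NUP153 KD-2 library carried NUP153 shRNA-2. There was 1 library per condition from 1 cell line, so a difference between any pair of them has no replicate check.

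The nuclear pore complex joins nucleus and cytoplasm. FG-repeat nucleoporins such as NUP62 and NUP54 fill its central channel, while NUP214, NUP88 and RANBP2 build the filaments on its cytoplasmic face. Messenger RNA leaves the nucleus bound to the receptor NXF1, which is loaded with the help of the TREX and TREX-2 complexes at or near the nuclear basket, the side of the pore where NUP153 sits. On the cytoplasmic side, GLE1 activates a DEAD-box helicase that strips the receptor from the messenger.

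Reads on genes numbered 72344726, 85258834 and 69839336 in the control, KD-1 and KD-2. Nup153, the targeted gene, had 27870, 16451 and 11126 reads in the control, KD-1 and KD-2, which gave log2 fold changes of -0.99 and -1.43 against control. Both KD libraries were therefore lower for the target, and KD-2 the lower of them, an order that turned when the libraries were scaled to the ES cell markers described next (-1.07 and -0.96). The cell markers also differed between the libraries. The 10 ES cell markers were all detected and summed to 4937, 5198 and 3963 CPM (reads scaled to the size of the library) in the control, KD-1 and KD-2. Against control, by more than 1.5-fold, 1 of them was higher and 0 lower in KD-1, and 1 was higher and 2 lower in KD-2. The 12 fibroblast markers, all detected, summed to 1400, 622 and 2851 CPM in the same order. By more than 1.5-fold, 8 of them were below the control for KD-1, and 10 were above it for KD-2. The 6 primitive endoderm markers summed to 96.3, 82.3 and 171 CPM, with 1 of them above the control by more than 1.5-fold for KD-1 and 3 for KD-2. The trophoblast markers summed to 37.6, 29.3 and 31.5 CPM, and the early neural markers to 241, 268 and 213 CPM. KD-2 thus held the highest fibroblast and primitive endoderm signal and the lowest ES cell signal, and the share of this in the differences given for KD-2 was not tested. A smaller number of ES cells in the pool and less of a transcript in each cell cannot be told apart in such bulk RNA.

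Fold changes below are ratios of reads after upper-quartile scaling, on a log2 scale with a pseudocount of 0.5 reads. The 95% interval in brackets is exact (binomial) and covers counting error only. A gene was called where it differed by more than 1.5-fold, which is a size and not a test. Both KD libraries were set against the same control library, so a direction shared by the 2 comparisons is not independent.

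The differences in the 10 genes were small for KD-1 and larger for KD-2. In KD-1 against control 0 of 10 were called, where 14.2% of the 16670 genes averaging 10 reads or more over the libraries were called, and 4.2% of the 7881 genes averaging 1000 reads or more, which are the better match to the 10. In KD-2 against control 2 of 10 were called, the channel nucleoporin gene Nup54 and the TREX-2 gene Eny2, both lower. The background for KD-2 was 27.3% of genes called in either direction and 10.2% called lower, and among genes with at least 1000 reads it was 17.4% and 9.12%. The share of 2 in 10 is near this background. Over 6 scalings and pseudocounts, Eny2 was called in 4 and Nup54 in 2. Both calls of Nup54 came with upper-quartile scaling, at pseudocounts of 0.5 and 5 reads. The median log2 fold change over the 10 genes was 0.03 for KD-1 and -0.29 for KD-2, while over all genes with at least 1000 reads it was -0.02 and -0.16, and over all genes tested 0.02 and -0.02. In KD-2, 9 of 10 genes were below the control with upper-quartile scaling, 8 of 10 after scaling to library totals, and 2 of 10, again Nup54 and Eny2, after scaling to the summed reads of the ES cell markers, which moved every KD-2 value up by 0.47. Directions against control given below are those of upper-quartile scaling.

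**Figure D1:**
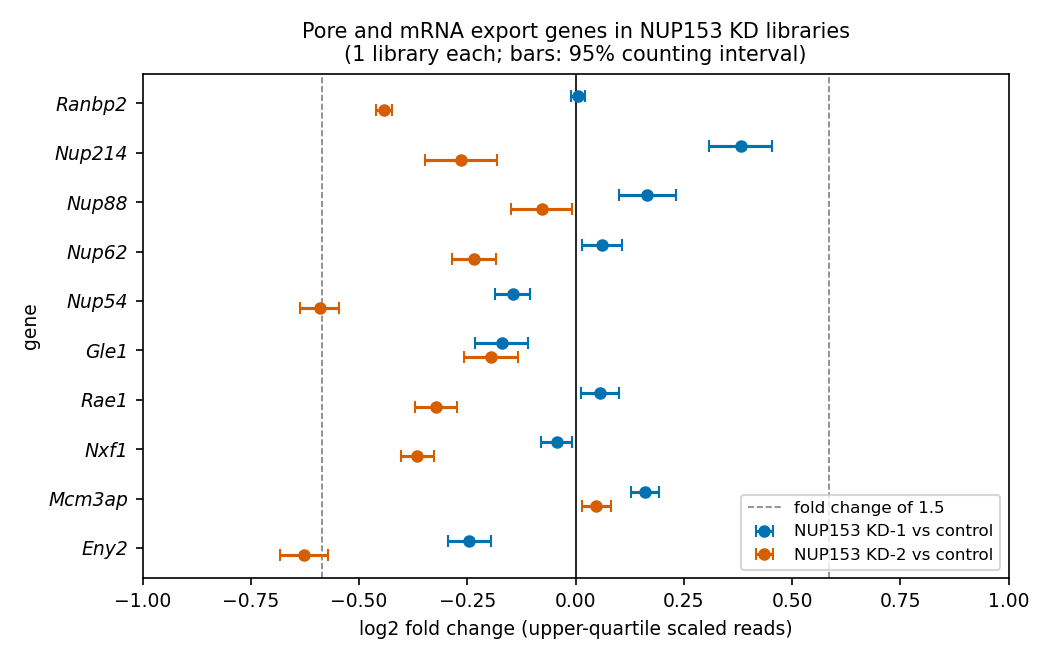
Log2 fold change (x axis) of each of the 10 genes in KD-1 and in KD-2 against control, with bars for the 95% counting interval. Eny2 at -0.63 and Nup54 at -0.59 lie past the 1.5-fold line in KD-2 under upper-quartile scaling and inside it after scaling to library totals.

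RANBP2 (NUP358) is the large filament protein that holds SUMO-modified RanGAP at the pore. Ranbp2 (ENSMUSG00000003226.7, chr10:58446920-58494356, plus strand, mm10) had 54380, 63964 and 43071 reads in the control, KD-1 and KD-2. The KD-1 and control libraries were level after scaling, and KD-2 was lower. Its log2 fold change was 0.01 [-0.01 to 0.02] for KD-1 and -0.44 [-0.46 to -0.43] for KD-2, 0.45 [0.43 to 0.47] apart.

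NUP214 is an FG nucleoporin that docks the export helicase, and NUP88 is its structural partner in the filament. Nup214 (ENSMUSG00000001855.15, chr2:31974436-32053975, plus strand) had 2526, 3855 and 2265 reads in the control, KD-1 and KD-2. KD-1 was the highest library and KD-2 the lowest, so the gene lay on opposite sides of the control. The log2 fold change was 0.38 [0.31 to 0.45] for KD-1 and -0.26 [-0.35 to -0.18] for KD-2. Nup214 was the member farthest above control in KD-1, where 95.6% of genes with at least 1000 reads had a lower value. Nup88 (ENSMUSG00000040667.11, chr11:70943058-70969973, minus strand) had 3272, 4300 and 3338 reads. It followed the same order with smaller steps, at 0.17 [0.10 to 0.23] for KD-1 and -0.08 [-0.15 to -0.01] for KD-2, the latter turning above 0 after scaling to library totals.

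The channel is lined by NUP62, NUP54 and NUP58, which form a coiled-coil trimer with FG repeats. Nup62 (ENSMUSG00000109511.1, chr7:44816088-44830812, plus strand) had 6613, 8083 and 6056 reads in the control, KD-1 and KD-2. Nup54 (ENSMUSG00000034826.14, chr5:92415540-92435219, minus strand) had 9611, 10184 and 6874 reads. Nup54 was the lower of the pair against control in either KD library. For Nup62 the log2 fold change was 0.06 [0.01 to 0.11] in KD-1, a sign that turned under other scalings, and -0.23 [-0.28 to -0.18] in KD-2. For Nup54 it was -0.15 [-0.19 to -0.10] for KD-1 and -0.59 [-0.64 to -0.55] for KD-2, or 0.664 of the control level. Among genes with at least 1000 reads, 8.73% lay lower than Nup54 in KD-2. Nup58, the remaining subunit, had 9054, 8779 and 6661 reads and log2 fold changes of -0.27 and -0.55. The level of Nup62 relative to Nup54, as a ratio of RPKM (reads scaled to exon length and library size), was 0.802, 0.926 and 1.03 in the control, KD-1 and KD-2, a ratio that no scaling of the libraries alters. With the longest transcripts it was 0.595, 0.686 and 0.761.

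RAE1 binds NUP98 and takes part in mRNA export, and GLE1 activates the helicase DDX19 at the cytoplasmic face. Rae1 (ENSMUSG00000027509.11, chr2:173000117-173015739, plus strand) had 7490, 9120 and 6448 reads in the control, KD-1 and KD-2. Gle1 (ENSMUSG00000019715.14, chr2:29935426-29960371, plus strand) had 4364, 4541 and 4106 reads. Rae1 was near the control in KD-1 and below it in KD-2, while Gle1 was below it in both. Rae1 stood at 0.06 [0.01 to 0.10] in KD-1, with a sign that depended on the scaling, and at -0.32 [-0.37 to -0.27] in KD-2. Gle1 stood at -0.17 [-0.23 to -0.11] for KD-1 and -0.19 [-0.26 to -0.13] for KD-2, and the interval of the difference between the KD libraries, -0.04 to 0.08, included 0 with this scaling. With library totals Gle1 stood at -0.18 and -0.04, and with the ES cell markers at -0.25 and 0.28.

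NXF1 is the general mRNA export receptor. Nxf1 (ENSMUSG00000010097.15, chr19:8757073-8770922, plus strand) had 11993, 13634 and 10023 reads in the control, KD-1 and KD-2. It was close to control in KD-1 at -0.04 [-0.08 to -0.01] and lower in KD-2 at -0.37 [-0.40 to -0.33]. Its partner subunit Nxt1 had 2895, 3330 and 2496 reads and values of -0.03 and -0.32. The RPKM ratio of Nxf1 to Nxt1 stayed between 1.01 and 1.04 in the 3 libraries.

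MCM3AP (GANP) is the scaffold of TREX-2, and ENY2 is a small subunit shared between TREX-2 and the deubiquitinase module of the SAGA coactivator. Mcm3ap (ENSMUSG00000001150.7, chr10:76468927-76515857, plus strand) had 13145, 17202 and 14637 reads in the control, KD-1 and KD-2. Eny2 (ENSMUSG00000022338.8, chr15:44428042-44438256, plus strand) had 6547, 6472 and 4566 reads. In KD-2 the scaffold gene stayed near the control and the small subunit was lower. Mcm3ap was the sole member above control in KD-2 with upper-quartile scaling, at 0.05 [0.01 to 0.08], after 0.16 [0.13 to 0.19] in KD-1. Eny2 was the lowest member in both, at -0.25 [-0.29 to -0.20] for KD-1 and -0.63 [-0.68 to -0.57] for KD-2, or 0.648 of the control. In KD-2, 6.70% of genes with at least 1000 reads lay lower than Eny2. The RPKM ratio of Mcm3ap to Eny2 was 1.61, 2.13 and 2.57 in the control, KD-1 and KD-2 with merged exon lengths, and 0.937, 1.24 and 1.496 with the longest transcripts, which puts Eny2 above Mcm3ap in the control.

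The stretches just upstream of the start sites are shown for Nup54, called lower in KD-2, for Mcm3ap, which was not, and for Nup62, the channel partner of Nup54. They are RefSeq promoter sequence of GRCm38, the assembly also named mm10, read 5′ to 3′ on the strand of the gene. The capitals mark CCGGAAGT, the core letters of an ETS-type site, in Nup54 and Mcm3ap, and the letters of an NRF1-type site in Nup62.
Nup54, chr5:92435220-92435339, minus strand: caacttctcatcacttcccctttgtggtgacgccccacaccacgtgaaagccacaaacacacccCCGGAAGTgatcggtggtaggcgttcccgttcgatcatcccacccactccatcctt
Mcm3ap, chr10:76468782-76468901, plus strand: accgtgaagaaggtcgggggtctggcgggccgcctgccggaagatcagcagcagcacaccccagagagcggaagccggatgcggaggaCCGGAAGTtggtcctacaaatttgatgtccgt
Nup62, chr7:44815968-44816087, plus strand: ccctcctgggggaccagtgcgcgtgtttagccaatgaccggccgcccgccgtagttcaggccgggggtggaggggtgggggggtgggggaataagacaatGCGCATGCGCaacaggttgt

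Windows of 300 bases around the start, 250 before it and 50 after, were matched for 9 of the 10 genes, Eny2 being the exception, and both strands were searched. CCGGAAGT lay in the windows of Nup54, Mcm3ap and Rae1, and in 3.89% of all 32851 windows. In KD-2 against control Nup54 stood at -0.59, Rae1 at -0.32 and Mcm3ap at 0.05, and a link of these letters to the values was not tested. The NRF1-type letters shown in capitals lay in the window of Nup62 and in 0.971% of all windows. CACGTG was present in the windows of Ranbp2 and Nup54 and in 7.15% of all, and TATAAA in that of Ranbp2 and in 13.6%. A YY1-type motif lay in the window of Nup88 and in 0.633% of all. These letters were chosen after the sequences had been seen, and a match describes the window only.

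The 2 KD libraries differed from each other more than KD-1 differed from the control. Against KD-2, KD-1 had 1 of 10 genes called, Nup214, which was higher, while 30.1% of genes were called in either direction and 13.9% higher (20.2% and 9.25% of those with at least 1000 reads). The log2 difference for Nup214 was 0.65 [0.57 to 0.72], 1.56-fold, and the call was lost with DESeq2 size factors and with library totals. The median over the 10 genes was 0.35, beside 0.18 over genes with at least 1000 reads and 0.12 over all genes tested. Scaled to the ES cell markers it was -0.21, beside -0.38 and -0.43, and KD-1 was the lower library for 9 of 10 genes, with Nup214 at 0.09 the exception. The smallest differences were those of Gle1 at 0.02 [-0.04 to 0.08] and Mcm3ap at 0.11 [0.08 to 0.14], and these 2 turned below 0 also under library totals. Gle1 did so too with TMM (-0.03), DESeq2 size factors (-0.08) and upper quartiles of genes averaging 10 reads or more (-0.02).

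**Figure D2:**
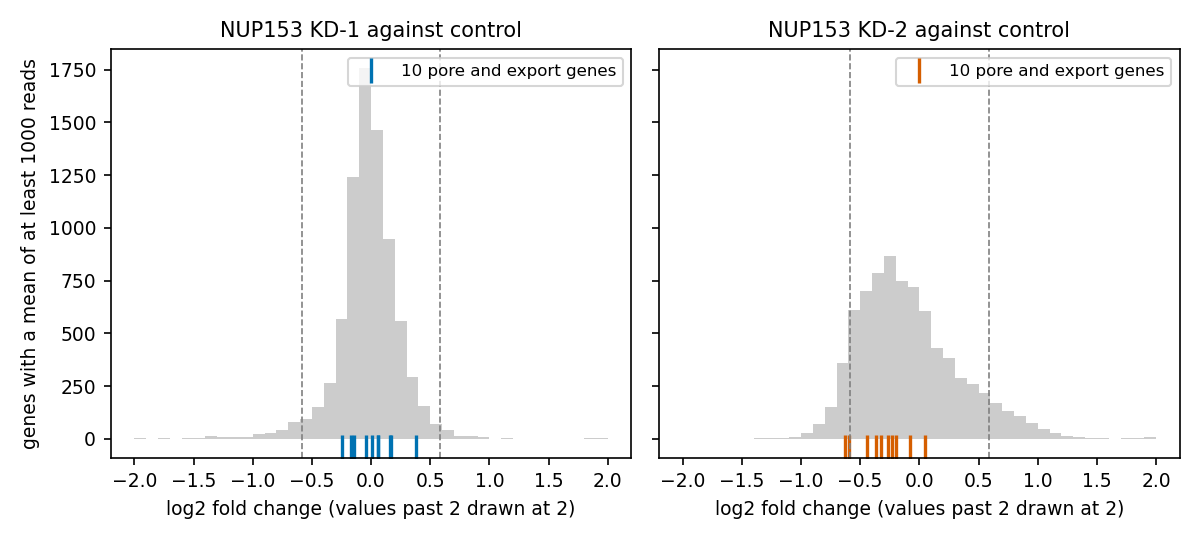
Number of genes (y axis) by log2 fold change (x axis) among the 7881 genes averaging 1000 reads or more, for each comparison, with values past 2 drawn at 2 and the 10 genes marked. Nup214 lies toward the upper side in KD-1, above 95.6% of genes, and Eny2 and Nup54 lie toward the lower side in KD-2, where 6.70% and 8.73% of genes were lower.

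The KD libraries were also set against the control as a pair, with the spread taken from KD-1 and KD-2 alone. The edgeR quasi-likelihood test called 4 of 21164 genes at an adjusted p of 0.05, 0.0189% of those tested, and 0 of the 10 genes. At an unadjusted p under 0.05 it listed 293 genes (1.38%) and again 0 of the 10, and the Wald test of DESeq2 called 2 genes, listed 82 at an unadjusted p under 0.05, and had 0 of the 10 at either level. The fitted log2 fold changes of the 10 genes ran from -0.41 for Eny2 to 0.12 for Mcm3ap. The smallest unadjusted p among them was 0.294, for Eny2, with an adjusted p of 1.00 in the edgeR quasi-likelihood test. The edgeR test had 1 residual degree of freedom. It did not call Nup153 itself, which had a fitted log2 fold change of -1.19. A miss in this test is therefore no sign that the genes were alike.

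Levels of the 10 genes per length spanned more than an order of magnitude. In the control the RPKM values, from the merged exon length of each gene, were 64.1 for Ranbp2, 40.5 for Rae1, 39.9 for Nup54, 37.4 for Nxf1 and 32.0 for Nup62. The lower part of the order held Mcm3ap at 25.2, Eny2 at 15.7, Gle1 at 9.91, Nup88 at 5.55 and Nup214 at 3.61. The filament thus held the members of highest and of lowest level. Ranbp2 exceeded Nup214 by 17.7-fold, 13.7-fold and 15.7-fold in the control, KD-1 and KD-2. Neighbours such as Rae1 and Nup54 had no spread over replicates to tell them apart. The RPKM of Nup54 went from 39.9 in the control to 35.9 with shRNA-1 and 29.6 with shRNA-2, where Nup62 was at 30.4. The length used moves these levels, since with the longest transcript Eny2 stood at 30.2 and Nup88 at 15.1 in the control, and in KD-2 Nup54 was at 41.8 and Nup62 at 31.9.

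**Figure D3:**
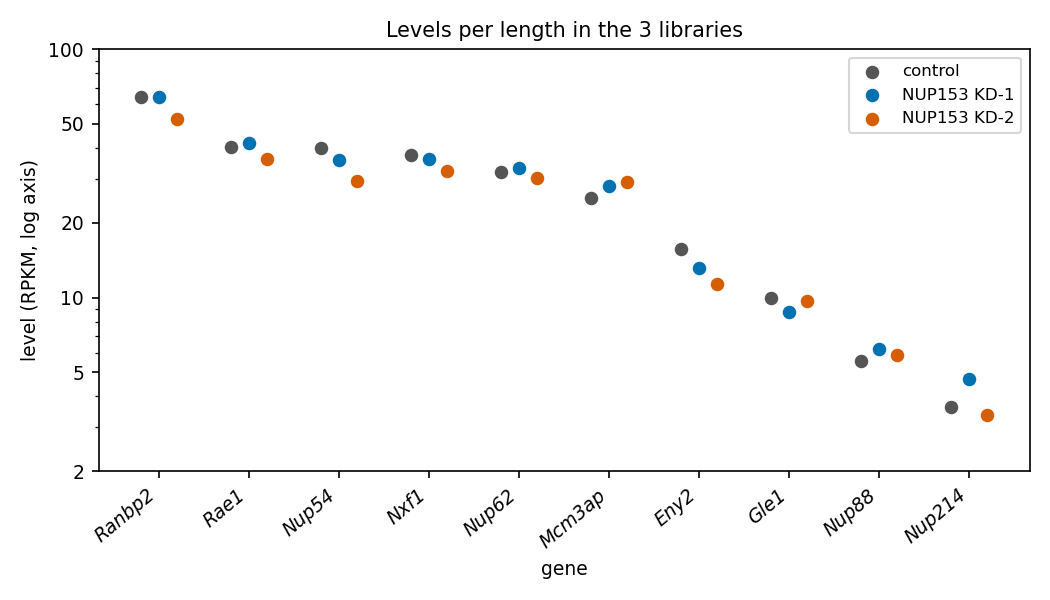
Level in RPKM (log axis) of each of the 10 genes in the control, KD-1 and KD-2 libraries, 1 point per library. Ranbp2 is at the top in every library, at 64.1, 64.0 and 52.6, and Nup214 at the bottom.

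Some counts share exons with another gene, and whether strand was used in counting was not stated. Exons of Eny2 overlap Nudcd1 on the opposite strand over 266 bases, 4.62% of the exon length. Mcm3ap overlaps Ybey over 188 bases (2.61%), Nup214 overlaps Fam78a over 177 bases (1.83%), and Nup62 overlaps Il4i1 on the same strand over 97 bases (3.40%) and Atf5 on the opposite strand over 82 bases (2.87%). Nup88 overlaps Rabep1 over 48 bases. A Nup62-il4i1 readthrough gene was counted on its own, with 24, 26 and 18 reads, and reads in exons it shares with Nup62 cannot be told apart. Nup54, Ranbp2, Rae1, Gle1 and Nxf1 had no such overlap.

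The partners of these proteins in the pore and in mRNA export made 46 further genes. In KD-1 2 were called higher and 1 lower, 6.52% of the partners beside the 14.2% of all genes and 4.2% of genes with at least 1000 reads. In KD-2 1 was called higher and 6 lower, 15.2% beside 27.3% and 17.4% in either direction. The 6 lower made 13.0%, beside 10.2% and 9.12%. After scaling to library totals the 7 calls became 3, those of Nxf2, Nxt2 and Magohb, and scaled to the ES cell markers 4 were called higher and 1 lower. Their median log2 fold change was -0.02 for KD-1 and -0.26 for KD-2, near the 0.03 and -0.29 of the 10 genes. The share of all genes called, 14.2% for KD-1, 27.3% for KD-2 (4.2% and 17.4% with at least 1000 reads), is also the background for the counts in each list below. Of the partners, 40 lay below the control in KD-2 with upper-quartile scaling, 29 after scaling to library totals and 10 after scaling to the ES cell markers.

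Among the 4 TREX-2 partners, the centrin genes were called lower in KD-2, and neither call was kept with library totals. Cetn2 had 4873, 4744 and 3389 reads in the control, KD-1 and KD-2, which put KD-2 at -0.63. Cetn3 had 9332, 8137 and 6157 reads and stood at -0.71. Pcid2 and Sem1, the other TREX-2 subunits, were both at -0.43 and not called. With Eny2 and Mcm3ap, 3 of the 6 genes of the complex were called lower in KD-2, beside 10.2% of all genes and 9.12% of those with at least 1000 reads, and 0 of 6 with library totals. ENY2 also works with the SAGA deubiquitinase module, and the 4 genes listed under that module had 0 called in either KD library. Their values ran from -0.06 for Atxn7l3 to 0.32 for Usp27x in KD-1, and from -0.27 for Usp22 to 0.33 for Usp27x in KD-2. With the ES cell markers 2 of these 4 were called higher in KD-2, and their median was 0.45.

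Of the 5 NXF and NXT genes, Nxf2, a relative of Nxf1 known from germ cells, was called higher in both, against the same control library. It was a low gene with 108, 315 and 275 reads, and its log2 fold change was 1.31 [1.00 to 1.64] for KD-1 and 1.24 [0.92 to 1.58] for KD-2. Nxt2, a relative of Nxt1, was called lower in KD-2 at -0.75, with 3168, 3092 and 2031 reads, and stood at -0.27 and was not called with the ES cell markers.

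TREX packages the messenger for export, and the cap-binding and exon junction proteins mark its ends and splice junctions. Of 15 TREX genes, 0 were called for KD-1 and 1 (6.67%) for KD-2, Sarnp, which had 14318, 14972 and 9295 reads. It stood at -0.73, and at -0.57 and not called with library totals. The highest TREX genes were Zc3h11a at 0.29 for KD-1 and Thoc6 at -0.01 for KD-2, and the lowest in KD-1 was Alyref2 at -0.26. Of 8 cap-binding and exon junction genes, 1 was called lower for KD-1 and 2 for KD-2. These were Magohb in both and Magoh, the other gene of this near-identical exon junction pair, in KD-2 alone. By direction, 5 of the 8 lay below the control in KD-1 and 8 of 8 in KD-2. Magohb had 3411, 2345 and 1568 reads and stood at -0.77 for KD-1 and -1.23 for KD-2, while Magoh was at -0.13 and -0.71, the latter not called with library totals. Reads of this pair can be split between the copies, so the value of each is uncertain. The highest of the 8 was Ncbp3, at 0.23 and -0.22.

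Among the 7 pore partners of the filament and channel, Nup62cl, a relative of Nup62, had 1880, 4320 and 2486 reads in the control, KD-1 and KD-2. It was called higher in KD-1 at 0.97 and stood at 0.30 in KD-2, or at 0.77 and called with the ES cell markers.

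The Y complex and the inner ring and membrane genes had lower medians than the 10 genes in KD-2, while the 7 pore partners had a higher one, at -0.10. Of 9 genes of the Y complex, the outer ring scaffold, 0 were called for KD-1 and 5 were called lower for KD-2, with a median of -0.60 and the lowest value, -0.85, in Nup43. With library totals 2 of the 5 calls were left. Of 8 inner ring and membrane genes 3 were called lower in KD-2, with a median of -0.55 and the lowest value, -0.71, in Nup35, and 0 were called with library totals. The background called lower in KD-2 was 10.2%, or 9.12% of genes with at least 1000 reads. Pom121, a membrane nucleoporin, was called higher in KD-1 at 0.74. The median of the cytoplasmic, channel and export genes in KD-2, -0.29, was thus the highest of these 3, and the difference between the lists was not tested. Another scaling moves all 3 by the same amount and keeps that order, and with the ES cell markers they stood at 0.18 for the 10 genes, -0.13 for the Y complex and -0.08 for the inner ring and membrane genes.

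**Figure D4:**
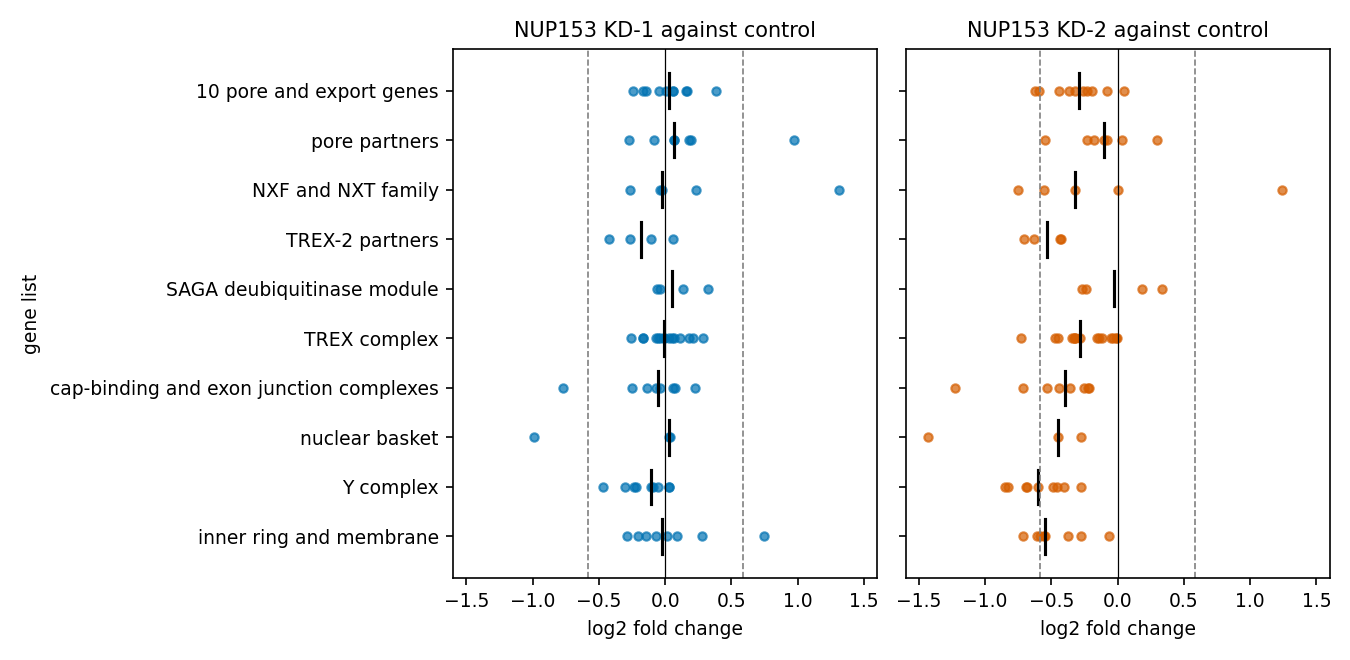
Log2 fold change (x axis) of each gene in KD-1 and KD-2 against control, by list, with the median of each list marked. The medians in KD-2 run from -0.03 for the SAGA deubiquitinase list to -0.60 for the Y complex with upper-quartile scaling.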

How the data were processed

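The authors made 50-base single-end reads from Ribo-Zero Gold total RNA libraries, trimmed them with Trim Galore 0.4.1, aligned them to mm10 with TopHat 2.1.1 and deposited raw read counts per gene. The labels name HTSeq and the methods featureCounts as the counter, and use of strand was not given. Lines for reads on no gene or on several genes, 23.0% to 25.6% per library, were left out.

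The 10 genes and the lists of partners were chosen with earlier results of these data known. Named genes were the 10, Nup153, and in each list the genes called in either KD library and the highest and lowest in each. Nxt1 was added for its role, and of the other pore lists the lowest gene and Pom121 were named. Some genes that this rule names are not reported here. Counts were scaled by the upper quartile, as log2 of scaled reads plus 0.5, with exact 95% binomial intervals that cover counting error only. The study's fixed dispersion, whose value was not stated, was replaced by the 1.5-fold rule, with dispersions of 0.01 and 0.04 as alternatives. Both KD libraries were compared with the control by quasi-likelihood in edgeR 4.0.16 (TMM, 21164 genes with a read, Benjamini-Hochberg), and by the DESeq2 1.42.0 Wald test as an alternative. With KD-1 and KD-2 as its sole replicates, the test measures their spread and not that of cultures under 1 shRNA. RPKM used merged exon lengths of GENCODE for GRCm38. Of the 24421 symbols, 23376 matched directly, 650 by an older symbol and 395 did not match. Code was tested on simulated counts. R 4.3.3 and Python 3.11.15 were used.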

Additional observations from a re-analysis of the deposited data

How the results depend on the processing

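No paired analysis was possible because each condition had 1 library. Without KD-1 or KD-2 the quasi-likelihood test has no residual degrees of freedom and gives no count. The cause of the changes below was not tested.

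In KD-2 the count of the 10 genes called, 2, became 1 with TMM, 1 with DESeq2 size factors, 0 with library totals, 0 with upper quartiles of genes averaging 10 reads or more, and 0 when scaled to the ES cell markers, an alternative added after seeing the data. It became 0 at 2-fold, 5 at a lower fold threshold than 1.5 and 0 at a dispersion of 0.04. In KD-1 against KD-2 the count of 1 became 0 with DESeq2 size factors, library totals, ES cell markers, 2-fold or a dispersion of 0.04, and 6 at the lower fold. In KD-1 the count of 0 became 1 at the lower fold. Eny2 was called in KD-2 in 4 of 6 scalings and pseudocounts (-0.63 to -0.47), Nup54 in 2 of 6 (-0.59 to -0.43), and Nup214 between the KD libraries in 4 of 6 (0.48 to 0.65). Of these 6, 1 is upper-quartile scaling with a pseudocount of 5 reads, so Nup54 was called with upper-quartile scaling alone. With ES cell markers, Eny2 stood at -0.15, Nup54 at -0.12 and the median of the 10 genes at 0.18 in KD-2. Library totals moved the median of all genes in KD-2 from -0.02 to 0.14 and ES cell markers moved it to 0.45; a scaling moves all genes alike, so the median of the 10 genes less that of all genes is -0.27, and less that of genes averaging 1000 reads or more -0.14, under each.

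Of the partners, the 7 called in KD-2 became 3 with library totals, and the 1 between the KD libraries became 0 with DESeq2 size factors or library totals, and 0 higher and 3 lower with ES cell markers. Ranbp2 over Nup214 became 14.8-fold with the longest transcript.

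Over all genes, KD-1 calls went from 2374 to 767 at 2-fold, 5308 at the lower fold, 4408 and 1028 among genes averaging 1 and 100 reads or more, and 749 and 68 at dispersions of 0.01 and 0.04. KD-2 calls went from 4547 to 1207, 9272, 2852 (100 reads) and 55 (0.04), and to 7010 with ES cell markers. KD-1 against KD-2 went from 5010 to 1838, 9718, 3318 and 600. The split of KD-1 calls, 1438 higher and 936 lower, became 1137 and 1201 with ES cell markers, 479 and 549 among genes averaging 100 reads or more, 94 and 237 among those averaging 1000 or more, and 372 and 377 at a dispersion of 0.01. The split of KD-2 calls, 2847 higher and 1700 lower, became 3941 and 820 with library totals and 6758 and 252 with ES cell markers. Among genes averaging 1000 reads or more it turned, at 654 higher and 719 lower. That of KD-1 against KD-2, 2321 and 2689, became 1555 and 3171 with DESeq2 size factors, 1229 and 3525 with library totals, and 344 and 6546 with ES cell markers. The 4 genes called by quasi-likelihood became 2 with upper quartiles, 2 with DESeq2 size factors, 0 on genes averaging 10 reads or more, and 2 by the Wald test.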
